A study of Mus musculus with 4 samples.

Results

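Gene expression in mouse embryonic fibroblasts (MEFs) that had lost the retinoblastoma protein (Rb) was compared with that in the parental cells, 1 Illumina mouse whole-genome BeadChip array a side. A gene was analysed if a probe of its symbol had a detection p-value below 0.01 on either array, and its brightest probe stood for it. This gave 12290 genes of the 12616 detected on any of the series' 4 arrays and of the 30872 symbols on the array. Both conditions came from FVB;129 MEFs with loxP sites on both Rb1 alleles (Rb f/f) grown in DMEM with FBS. Parental cells had received the solution without TAT-Cre and then medium alone. Rb-deleted cells had received TAT-Cre, a Cre recombinase with a cell-entry peptide, and then medium alone in place of a retrovirus. The remaining arrays held Rb-deleted cells given a retrovirus for WT Rb-HA or for ΔCdk Rb-HA, an Rb with its Cdk phosphorylation sites mutated, and their values stand beside some results for reference only. All 4 cultures had, as the study's text states and the labels do not, been contact inhibited for 48 hr, released for 4 hr and given 100 ng/ml doxorubicin, a topoisomerase II poison, for 3 hr. The comparison is therefore between cultures with damaged DNA, and no undamaged culture was measured.

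Rb is a pocket protein that binds E2F transcription factors and holds down the genes they drive for DNA replication. Cyclins with their Cdks phosphorylate Rb, and E2F is released as cells enter S phase. MEFs are a mixed primary culture in which fibroblasts make most of the collagen-rich matrix and secrete growth factors, chemokines and proteases. Interferon-induced genes, which lead the decreases here, are switched on through STAT and IRF factors at a short GAAANNGAAA element.

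With a single array a side there is no spread between cultures, so no test was made, and exposure to TAT-Cre and loss of Rb cannot be told apart. In bulk RNA, fewer cells of a type and less RNA per cell cannot be told apart either. Error within an array was given by the bead standard error (SE), the deposited error over the copies of a probe, carried into the log2 ratio of Rb-deleted to parental signal. "Increased" and "decreased" mean a ratio past 1.6-fold. Probe intensities are the deposited averages over a median of 44 beads, and the arrays were alike in mean intensity (346 and 336) and in median bead SE (4.50% and 4.46% of intensity). Of the genes analysed, 11182 were detected on both arrays, 291 on the parental array only and 817 on the Rb-deleted array only. The lowest detected intensity was 57.0 on the parental array and 53.8 on the Rb-deleted array. The part of this lower cut-off in the larger number was not tested. Of 20 fibroblast markers analysed, 19 stayed within 1.6-fold, a share close to the 11643 of 12290 over all genes. Of these markers 14 were below 0, with a median of -0.15, against 0.02 over all genes. Xist and the Y-linked Ddx3y were detected on both arrays at log2 ratios of 0.18 and 0.05.

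Rb1, the floxed gene on chromosome 14, was lower at both probes, which lie near the 3' end of its transcript. Whether either probe lies in the excised part was not determined. At transcript position 4421 the intensity fell from 543 to 160, a log2 ratio of -1.88 ± 0.08 (bead SE). None of the nearest genes analysed on the chromosome was called. P2ry5, now Lpar6, a lysophosphatidic acid receptor gene that lies within Rb1 in RefSeq, gave 1128 and 1153, a log2 ratio of 0.10 ± 0.05. The next genes on that side were Itm2b (-0.31 ± 0.04) and Med4 (0.29 ± 0.11). On the other side they were Rcbtb2 (0.47 ± 0.19), Xpo7 (-0.09 ± 0.12) and Epb4.9, now Dmtn, which was not detected in Rb-deleted MEFs (62.6 and 49.0, at least 1.26-fold lower).

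Most genes stood at similar levels in both cultures. The median log2 ratio was 0.02, the quartiles were -0.18 and 0.21, and 7656 genes (62.3%) lay within 1.2-fold. Increased genes numbered 269, which is 2.19% of those analysed, and decreased genes 378, which is 3.08%. All 269 and 378 lay further from 0 than 2 bead SE. The threshold nearly sets this in advance, since it is a log2 ratio of 0.68 and their median bead SE was 0.105 and 0.106. Of them 114 and 194 passed the threshold itself by more than 2 bead SE. Larger changes were rarer, with 65 increased and 157 decreased past 2-fold and 5 and 21 past 4-fold. Near the threshold, 64 increases lay within 0.05-fold above it and 83 genes within 0.05-fold below it, and for decreases these numbers were 51 and 75.

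**Figure D1:**
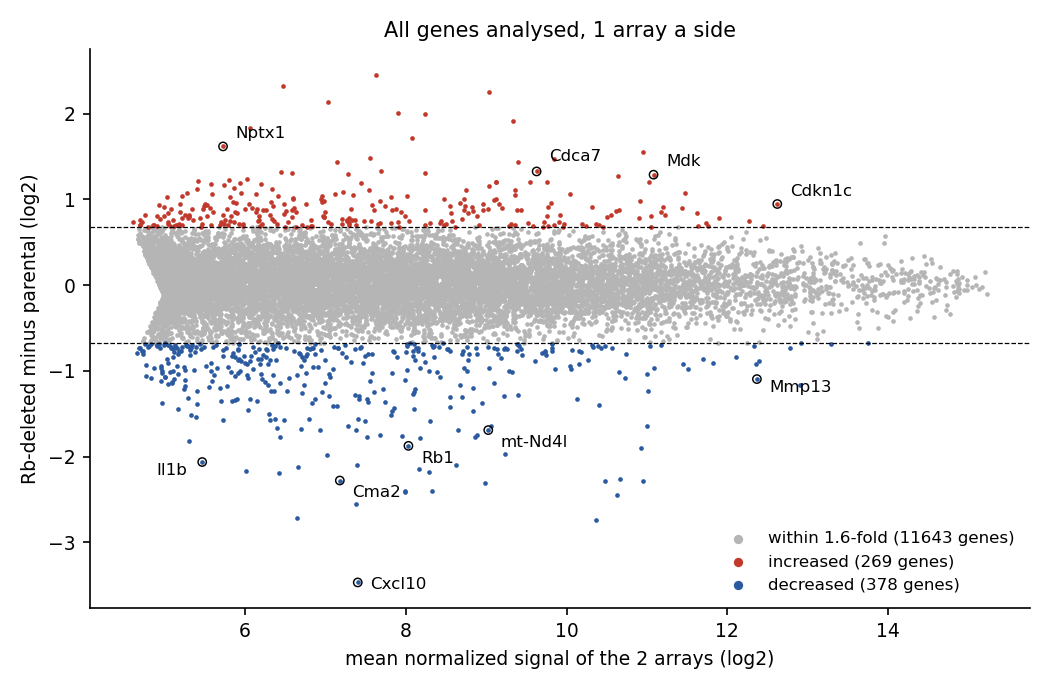
Log2 ratio of Rb-deleted to parental MEFs (y axis) against the mean normalized log2 signal of both arrays (x axis) for the 12290 genes analysed, 1 point a gene, with dashed lines at 1.6-fold. The 269 increases (red) and 378 decreases (blue) spread over the whole range of signal, and the notch at the left end is set by the detection filter.

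Called genes were found at every level of signal. Among the 2458 dimmest genes 2.20% were increased and 3.54% decreased, and among the 2458 brightest 1.63% and 1.95%. Dim genes depend more on the background correction: without it, 142 of the increases and 242 of the decreases still passed 1.6-fold. For 46 increased and 71 decreased genes the probe was not detected on the dimmer array, so that only a lower bound on the fold can be given, and for 11 and 26 of them the bound itself passed 1.6-fold. These bounds are on the background-corrected, normalized scale. On the deposited intensities, which include the background, only 2 and 8 bounds passed, and those of the largest changes are given on both scales.

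Second probes of the same gene, which share the RNA and the array, mostly moved the same way. Of 69 increased genes with another detected probe, 65 had the same sign there and 33 passed 1.6-fold the same way. Of 91 decreased genes, 90 had the same sign and 60 passed 1.6-fold. Among 3229 genes called in neither direction the sign was shared by 71.8%. Second-probe medians were 0.66 for the 69 increased and -0.77 for the 91 decreased genes. At the brightest probe, which made the call, the same genes had medians of 0.87 and -0.91. The exceptions in sign included Hist2h2ac, Cenpm and Rfc3 among the increases and Zfp607 among the decreases.

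**Figure D2:**
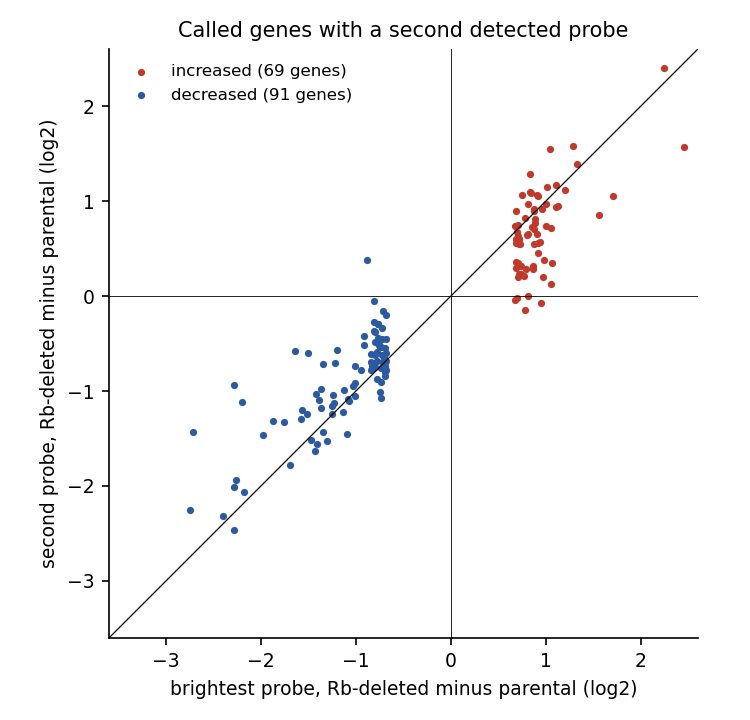
Log2 ratio at a second detected probe (y axis) against that at the brightest probe (x axis) for 69 increased (red) and 91 decreased (blue) genes, with the line of equality. In 155 of the 160 genes both probes had the same sign.

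Outside the curated lists of 67 E2F targets and 67 interferon-induced genes, of which 53 each were called, 216 genes were increased and 325 decreased. The 15 largest of each kind were named by rule. The rule took genes that also passed without background correction and whose symbol is neither a number nor a LOC model. Where 4 intensities are given, they run from parental over Rb-deleted to WT Rb-HA and last ΔCdk Rb-HA MEFs.

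**Figure D3:**
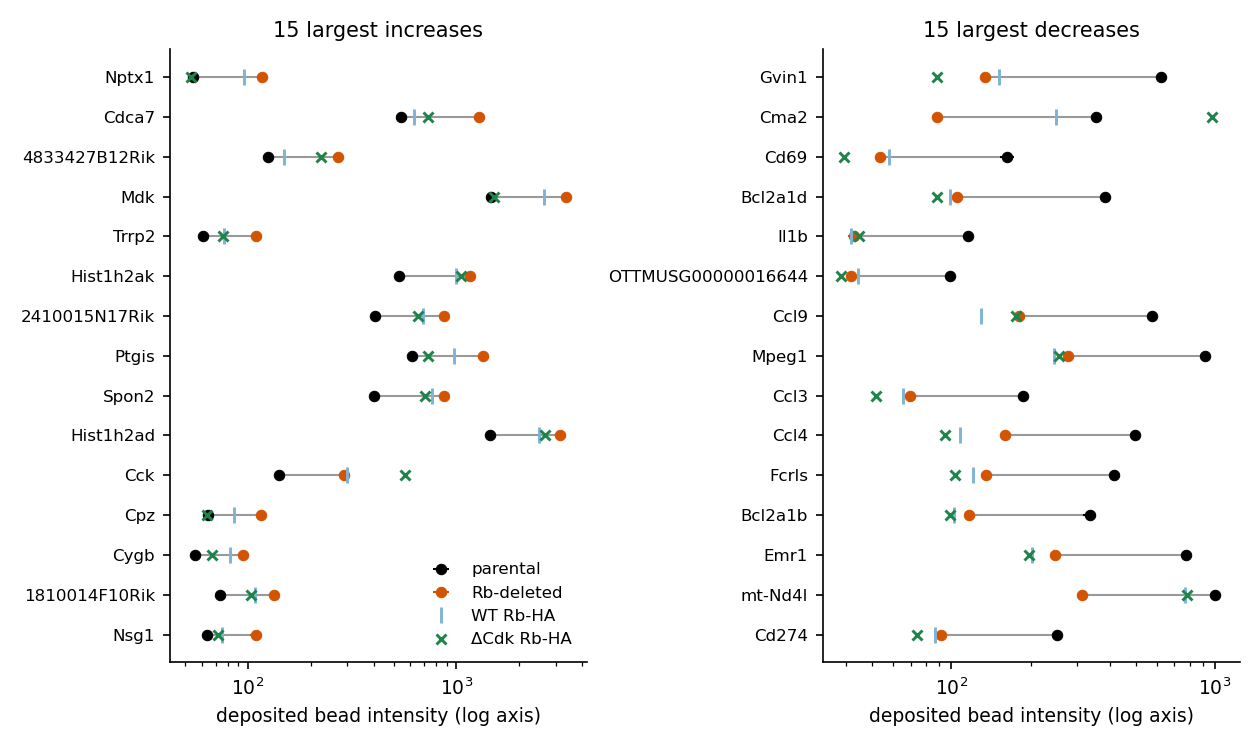
Deposited bead intensity (x axis, log scale) of the 15 largest increases (left) and decreases (right) outside the E2F and interferon lists. Genes whose symbol is a number or LOC model, or that did not pass without background correction, are left out. Each of the 4 conditions has its own marker, 1 array each, and bars, mostly hidden by the points, are bead SE. Mdk rose from 1458 to 3347 and Gvin1 fell from 626 to 134, while Cma2 stood higher with ΔCdk Rb-HA (970) than on any of the other arrays.

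The largest increases are described by the role of their products. Mdk, which encodes midkine, a heparin-binding growth factor of the embryo, gave 1458, 3347, 2630 and 1521, a log2 ratio of 1.29 ± 0.05 between the parental and Rb-deleted arrays. A second Mdk probe gave 460 and 1288, a log2 ratio of 1.58 ± 0.07. At both probes the ΔCdk Rb-HA value lay nearest to the parental value. Nptx1, a neuronal pentraxin, went from an undetected 54.2 to 116 in Rb-deleted MEFs, at least 2.81-fold higher after background correction and at least 2.04-fold on the deposited scale. Cck, the precursor of the gut and brain peptide cholecystokinin, gave 141, 288, 298 and 565, and it was thus higher still with ΔCdk Rb-HA. Its log2 ratio was 1.19 ± 0.10.

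Ptgis, prostacyclin synthase, rose 2.30-fold, from 612 to 1341 (bead SE 0.06 on the log2 scale). Spon2, a secreted matrix protein, rose 2.30-fold, from 404 to 867 (bead SE 0.07), and Cpz, a carboxypeptidase of the extracellular space, from 64.5 to 116 (1.19 ± 0.13). The globin gene Cygb went from an undetected 55.9 to 94.9, at least 2.18-fold higher after correction and 1.66-fold as deposited. The increases also held Trrp2, now Trpc2 (1.23 ± 0.11), 1810014F10Rik, now Fuom, which encodes fucose mutarotase (1.17 ± 0.14), and Nsg1, a neuronal endosomal protein (1.13 ± 0.17).

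Several growth factor and matrix genes chosen by list rose less. Of 37 growth factors analysed 3 rose and 4 fell, beside 2.19% and 3.08% of all genes. Gdf10, a factor of the TGF-beta family, gave 185, 345, 292 and 154 (1.03 ± 0.08), and Angpt2, a ligand of the Tie2 receptor, gave 836, 1308, 1229 and 730 (0.71 ± 0.05). In both, the intensity with ΔCdk Rb-HA was below that in parental MEFs. Pdgfb, Ereg, Vegfa and Angptl4 fell, as given below. Igfbp6, which binds IGF2, rose from 352 to 570 (0.77 ± 0.09), and Sfrp1, a secreted Wnt inhibitor, from 799 to 1257 (0.73 ± 0.06). A second Sfrp1 probe gave 0.24 ± 0.09. Each was the only member called of 17 IGF and 32 Wnt pathway genes at the brightest probe. Igfbp5, another IGF binding protein, lay just short of the threshold there, at 6301 and 3792 (-0.68 ± 0.05), and passed it at both other probes (-0.74 ± 0.05 and -0.75 ± 0.05).

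Elastic fibre genes Eln, which encodes elastin, and Ltbp4, which anchors latent TGF-beta, rose, and the other 17 of 19 stayed within 1.6-fold, with a list median of -0.19. Eln gave 1904, 3174, 2080 and 588 (0.82 ± 0.09), and Ltbp4 gave 204, 313, 238 and 131 (0.72 ± 0.09). Both were lowest with ΔCdk Rb-HA. Of 27 collagen genes 3 fell and only Col14a1, which coats collagen fibrils, rose (0.79 ± 0.10), with 146, 230, 183 and 83.7. Beside both lists stand 2.19% of all genes increased and 3.08% decreased, and the single collagen increase is close to that share. Col10a1, the collagen of hypertrophic cartilage, fell from 302 to 131 (-1.33 ± 0.12), and the fibrillar Col3a1 from 9036 to 5321 (-0.73 ± 0.07), as did Col5a2 (-0.69).

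Cdkn1c, an imprinted gene that encodes the Cdk inhibitor p57, rose as well. It gave 4613, 8789, 7049 and 2504, a log2 ratio of 0.95 ± 0.03, and was lowest with ΔCdk Rb-HA. The other 14 imprinted growth genes analysed stayed within 1.6-fold. At their brightest probes these included Dlk1, a Notch-like protein that restrains fat cell formation, at 13283, 19306, 16491 and 6218 (0.58 ± 0.05). A second Dlk1 probe did pass, at 3646, 6554, 4857 and 1287 (0.94 ± 0.04). The others included H19 (0.32 ± 0.04) and Igf2 (-0.08 ± 0.04). Lpl, lipoprotein lipase, rose from 738 to 1125 (0.68 ± 0.06), and none of the other 10 fat cell genes analysed passed 1.6-fold at its brightest probe. In both lists the share within 1.6-fold was close to that over all genes, 11643 of 12290.

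Some increases outside the E2F list serve DNA replication and chromatin. Cdca7, a chromatin factor that partners the remodeller Hells, gave 541, 1276, 626 and 730 (1.33 ± 0.06). The probe 4833427B12Rik, whose current name is Gins2, a subunit of the replicative helicase that the list holds under another symbol, rose from 125 to 269 (1.30 ± 0.10). Of 32 nucleotide synthesis genes 26 had ratios above 0 and 4 rose, beside 6471 of 12290 above 0 and 2.19% increased over all genes. These were Dctpp1 (array symbol 2410015N17Rik), which degrades dCTP, from 405 to 871 (1.21 ± 0.07), the thymidylate kinase Dtymk from 427 to 800 (1.00 ± 0.08), the uridine monophosphate synthase Umps from 344 to 609 (0.92 ± 0.08), and Shmt1 of folate metabolism from 120 to 190 (0.81 ± 0.09). Samhd1, which degrades dNTPs, fell from 403 to 243 (-0.73 ± 0.09). Enzymes that the E2F list already counts, such as ribonucleotide reductase, were not in this list.

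Further increases were chosen after their values were seen. Parp1, the DNA strand break sensor, gave 334, 626, 394 and 371 (1.01 ± 0.06), with 1.15 at its second probe. Hat1, which acetylates newly made histone H4, gave 1438, 2713, 1860 and 2248 (0.98 ± 0.04). Raet1b and Raet1c, ligands of the NKG2D receptor of natural killer cells, gave 1.00 ± 0.07 and 1.10 ± 0.08, and since they are near-identical copies each value may hold signal of the other. Of 51 chromatin genes in a list, Cbx2 (0.85 ± 0.14) and Hmgn2 (0.68 ± 0.06, with 0.36 at its second probe) rose and none fell, a share close to the 2.19% of all genes.

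Replication-dependent histone genes moved in opposite directions by family. The 39 analysed were a single list, and its split by family was made after the values were seen. Of 13 H2A genes 9 rose, with a family median of 0.82, and of 10 H2B genes 7 fell, with a median of -0.77. Over all genes 2.19% were increased and 3.08% decreased. Hist1h2ak gave 532, 1155, 997 and 1046 (1.21 ± 0.06), and Hist1h2ad gave 1448, 3144, 2475 and 2652, 2.30-fold higher (bead SE 0.05). Hist1h2be gave 1531, 783, 1758 and 2271 (-0.95 ± 0.05), and so was lowest in Rb-deleted MEFs and above the parental value on the other 2 arrays. Hist1h2bc fell from 3967 to 2043 (-0.92 ± 0.07). Of 8 H4 genes Hist1h4k fell (-0.84 ± 0.11), and none of 7 H3 genes passed 1.6-fold, with a median of -0.20. Copies within a family are near-identical, so the genes of a family are not separate measurements, and most of their messages end without the poly(A) tail; the part of either in the split was not tested.

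Promoters are shown next because the sequence was not used to choose genes. RefSeq gave a promoter (GRCm38.p6, 250 bases before the start) for 8147 of the genes analysed, 170 of the increases and 253 of the decreases. An E2F motif (TTTCGCGC, TTTGGCGC, TTTCCCGC or TTTGCCGC, either strand) stood in 3.58% of all promoters, in 14.1% of those of increased genes and in 2.77% of those of decreased genes. Without the genes of the E2F list the motif remained in 16 of 127 promoters of increased genes (12.6%). Windows picked from these 16 follow, with the motif in capitals. They show Cdca7, 3 H2A genes, the nuclear export factor gene Nxt1 and the Cdk gene Cdk2 (0.68 ± 0.06, just past the threshold). Not shown are the rest, among them Dnahc11, Blvra, Slc4a4 and Basp1.
Cdca7, chr2:72476132-72476171, plus strand: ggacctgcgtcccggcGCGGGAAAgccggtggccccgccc
Hist1h2an, chr13:21787277-21787316, minus strand: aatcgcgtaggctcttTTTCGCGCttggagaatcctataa
Hist1h2ag, chr13:22042988-22043027, minus strand: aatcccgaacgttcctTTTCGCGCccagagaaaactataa
Hist1h2af, chr13:23533811-23533850, plus strand: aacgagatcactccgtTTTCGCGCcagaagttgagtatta
Nxt1, chr2:148672525-148672564, plus strand: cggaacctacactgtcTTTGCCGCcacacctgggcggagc
Cdk2, chr10:128705168-128705207, minus strand: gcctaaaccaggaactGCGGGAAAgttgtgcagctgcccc
Within the histone families the motif did not follow the direction of change. It stood in 3 of 13 H2A promoters and in 3 of 8 H2B promoters, and the CCAAT box stood in all of both.

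Decreases outside the interferon list were led by genes of immune cells and inflammation. The largest by the naming rule was Gvin1, with 626, 134, 152 and 88.5 (-2.40 ± 0.07). Gvin1 is a very large GTPase that belongs to the same kind of interferon-induced proteins although the list does not hold it. LOC667370 (Ifit3b), left out of the ranking by its symbol, fell further (-2.55). Cd69, a leukocyte activation antigen, fell from 163 to an undetected 53.8, at least 4.48-fold lower after correction and 3.03-fold as deposited. Mpeg1, the macrophage pore protein perforin-2, gave 919, 276, 244 and 257 (-1.78 ± 0.08). Emr1, now Adgre1, which encodes the macrophage antigen F4/80, gave 773, 247, 203 and 198 (-1.69 ± 0.06). Fcrls, an Fc receptor-like gene of macrophages, fell from 414 to 135 (-1.75 ± 0.08), and Cd274, which encodes PD-L1, from 250.5 to 90.9 (-1.69 ± 0.10). OTTMUSG00000016644, now Ifit1bl1, fell from 98.96 to an undetected 41.8, at least 2.44-fold lower after correction and 1.84-fold as deposited.

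Macrophage and leukocyte markers moved with these genes. Of 52 markers on the array 32 were analysed, 21 fell, none rose and the median was -0.98, beside 3.08% of all genes decreased and a median of 0.02. Their summed intensity was 16024, 8685, 8127 and 9500, so all 3 TAT-Cre treated cultures were below the parental culture. Laptm5 gave 2287 and 860 (-1.40 ± 0.06), C1qb 168 and 71.3 (-1.56 ± 0.15), Cd14 656 and 297 (-1.16 ± 0.05) and Lyz2 834 and 461 (-0.85 ± 0.09). Defining markers Ptprc, Itgam, Itgax, Fcer1g and Cd74 were not detected on either array. The part of these cells in the decreases below was not tested.

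Chemokine genes, which encode attractants of leukocytes, fell in 12 of 21 cases, beside 3.08% of all genes, with a median of -0.84. The interferon list shares Ccl5, Cxcl9 and Cxcl10 of them. Ccl9 gave 578, 181, 129 and 175 (-1.78 ± 0.08), Ccl3 gave 186, 69.9, 65.7 and 51.9 (-1.78 ± 0.12) and Ccl4 gave 495, 159, 108 and 94.8 (-1.76 ± 0.06). Ccl2 and Ccl7, attractants of monocytes that fibroblasts also make, fell from 4513 to 2471 (-0.86 ± 0.07) and from 6090 to 3292 (-0.84 ± 0.07). Cxcl1 (-0.16 ± 0.08) and Cx3cl1 (-0.06 ± 0.10) stayed within 1.6-fold.

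Of 38 cytokine and receptor genes 7 fell and none rose, beside 3.08% and 2.19% of all genes. Il1b, interleukin-1 beta, fell from 115 to an undetected 42.8, at least 2.97-fold lower after correction and 2.15-fold as deposited, and its natural antagonist Il1rn from 659 to 254 (-1.42 ± 0.07). Casp1 and Casp4, the inflammatory caspases that act with interleukin-1, gave 416, 160, 151 and 138 (-1.47 ± 0.09) and 377, 157, 187 and 203 (-1.37 ± 0.08). The NF-kappaB brake Tnfaip3, which encodes A20, fell from 300.0 to 133 (-1.30 ± 0.09), and Ptgs2, cyclooxygenase-2, from 310 to 151 (-1.12 ± 0.13). Il6 did not pass, at 168 and 114 (-0.64 ± 0.12). Among apoptosis regulators the A1 genes Bcl2a1d, with 382, 105, 98.5 and 87.9 (-2.10 ± 0.10), and Bcl2a1b, with 335, 117, 102 and 98.7 (-1.69 ± 0.11), fell as well, though they are close copies whose signals may be shared.

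Genes that stood low in Rb-deleted MEFs and high with ΔCdk Rb-HA were grouped here after their values were seen. Cma2, a mast cell chymase gene, gave 353, 88.4, 248 and 970 (-2.28 ± 0.10), and its second probe gave 129, 48.8, 97.6 and 338. Mcpt8, a mast cell and basophil protease, gave 219, 87.1, 164 and 501 (-1.57 ± 0.14). Of 21 mast cell and granzyme genes on the array 6 were analysed. Cpa3, Mcpt4, Mcpt6, Fcer1a and Ms4a2 of the list were not detected on either array. Of the 6 analysed 3 fell, Cma2, Mcpt8 and Hdc, beside 3.08% of all genes. The summed intensity of the 6 was 844, 398, 649 and 1749. Without Cma2 and Mcpt8 the other 4 summed to 271, 222, 237 and 279, and Hdc, the histidine decarboxylase of mast cells, gave 95.7, 55.9, 55.2 and 52.9, so it was not high with ΔCdk Rb-HA. Il11, a cytokine of the IL-6 family, gave 1572, 785, 1304 and 2400 (-0.97 ± 0.09).

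Several secreted proteases also stood lowest in Rb-deleted MEFs. Mmp13, a collagenase, gave 7891, 3582, 4710 and 6989 (-1.10 ± 0.04), and Mmp10, a stromelysin, gave 1365, 683, 1168 and 1957 (-0.98 ± 0.05). Adamts4, an aggrecanase, fell from 221 to 121 (-0.98 ± 0.12), the plasminogen activator gene Plau from 1917 to 1131 (-0.71 ± 0.11) and Mmp3 from 10139 to 6114, just past the threshold (-0.68 ± 0.04). Of 30 genes in the protease and inhibitor list these 5 fell, beside 3.08% of all genes, while the list median was -0.07. Mmp15 counted as increased, but its parental probe was at background and its bound of 1.39-fold is short of the threshold. Spp1, the secreted phosphoprotein osteopontin, gave 7486, 3914, 4826 and 9875 (-0.89 ± 0.07).

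Of 26 cadherin and adhesion genes 4 fell and none rose, beside 3.08% and 2.19% of all genes, with a median of -0.20. Vcam1, an endothelial and stromal ligand of leukocyte integrins, gave 2372, 1157, 1165 and 1184 (-1.01 ± 0.04), and the heparan sulfate proteoglycan gene Gpc4 fell from 1659 to 858 (-0.92 ± 0.07). Pdgfb, a chain of platelet-derived growth factor, fell from 140 to 68.0 (-1.35 ± 0.15), the EGF receptor ligand gene Ereg from 194 to 109.7 (-0.95 ± 0.15) and Vegfa, the vascular growth factor, from 1746 to 1023 (-0.72 ± 0.07). Angptl4, a secreted inhibitor of lipoprotein lipase, fell from 444 to 277 (-0.69 ± 0.09). A second Vegfa probe gave -0.16. None of the 16 integrins and 6 endothelial markers analysed passed 1.6-fold.

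Of 41 NRF2 and glutathione genes 4 fell, beside 3.08% of all genes, with a list median of -0.02. Mt2, a metallothionein that binds zinc, fell from 333 to 150 (-1.24 ± 0.21), whereas Mt1 gave 28165 and 20707 (-0.37 ± 0.03). Sod3, the extracellular superoxide dismutase, gave 217, 109, 162 and 236 (-1.15 ± 0.10). Thioredoxin reductase 1 (Txnrd1) and the cystine transporter Slc7a11 fell by less, at -0.87 ± 0.08 and -0.73 ± 0.08, and Nqo1 (0.30 ± 0.08) and Srxn1 (0.06 ± 0.04) did not pass.

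Other decreases were singled out after their values were seen. Cdsn, corneodesmosin, fell from 586 to 206 (-1.58 ± 0.06), with -1.30 at its second probe, and Ivl, involucrin, gave 457, 206, 358 and 1043 (-1.22 ± 0.08). None of the 6 epithelial markers analysed passed 1.6-fold, beside 11643 of all 12290 genes that did not. Nupr1, a stress-induced nuclear protein, gave 4194, 2084, 2726 and 3773 (-0.98 ± 0.07). Tlr2, a receptor for bacterial lipoproteins, fell from 844 to 332 (-1.37 ± 0.08).

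The interferon-type element GAAANNGAAA stood in 2.58% of all promoters, in 13.8% of those of decreased genes and in none of the 170 of increased genes. Without the interferon list it remained in 19 of 211 decreased promoters. Several of these genes belong by name to interferon-induced families that the list missed, namely LOC667370 (Ifit3b), OTTMUSG00000016644, Gbp5, AI607873 (Ifi207), BC094916 (Ifi214) and Irgb10. Whether the rest, Phf11 among them, are induced by interferon was not tested. Windows of other genes, picked from the rest, show it in Ctss, the lysosomal protease cathepsin S (-1.17 ± 0.10), Plxnc1, a semaphorin receptor (-1.17 ± 0.12), Apol9b, an apolipoprotein L gene (-1.33 ± 0.12), Mmp13 and Vegfa, with the element in capitals on either strand.
Ctss, chr3:95526749-95526785, plus strand: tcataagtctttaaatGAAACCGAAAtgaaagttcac
Plxnc1, chr10:94944938-94944979, minus strand: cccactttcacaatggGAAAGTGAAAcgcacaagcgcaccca
Apol9b, chr15:77729025-77729066, plus strand: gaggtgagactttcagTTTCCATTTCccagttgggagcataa
Mmp13, chr9:7272352-7272393, plus strand: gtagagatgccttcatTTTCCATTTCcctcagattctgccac
Vegfa, chr17:46032494-46032535, minus strand: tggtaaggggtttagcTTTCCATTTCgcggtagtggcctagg
Other letters differed in frequency as well. The AP-1 site TGANTCA stood in 11.1% of decreased promoters, 4.71% of increased and 4.22% of all, the TATA box TATAAA in 15.4%, 8.82% and 6.78%, and the PU.1 site GAGGAAGT in 5.14%, 1.18% and 2.26%. The CCAAT box stood in 28.9%, 47.6% and 36.3%. The NF-kappaB consensus stood in 10.7%, 10.6% and 8.70%. A match describes letters and no binding.

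**Figure D4:**
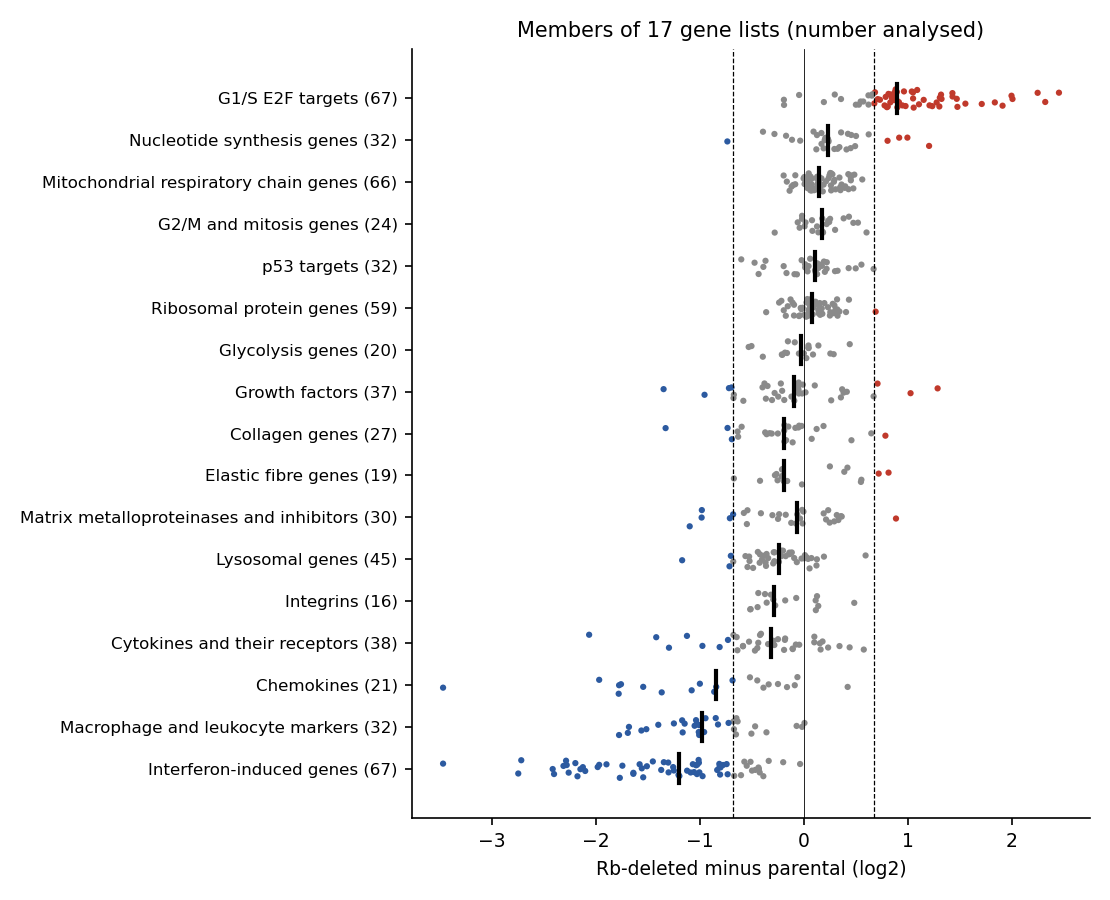
Log2 ratio of Rb-deleted to parental MEFs (x axis) for each analysed member of 17 gene lists (y axis, number analysed in parentheses), 1 point a gene, with the list median as a black bar, increases in red, decreases in blue and dashed lines at 1.6-fold. E2F targets sit to the right (median 0.90), interferon-induced genes (-1.20), macrophage markers (-0.98) and chemokines (-0.84) to the left, and glycolysis genes (-0.02) and ribosomal protein genes (0.08) around 0.

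Other lists held few called genes or none. No member passed 1.6-fold among 24 G2/M and mitosis genes (median 0.18), 32 p53 targets (0.11), 27 cholesterol synthesis genes (0.02), 20 glycolysis genes (-0.02), 21 chaperones of the endoplasmic reticulum (-0.04), 24 heat shock genes (-0.09), 24 ribosome biogenesis genes (0.06), 13 Notch and Hedgehog genes (0.06) and 11 clock genes (-0.30). Of the G2/M and mitosis genes 19 were above 0, and of the clock genes 7 were below 0. A single member was called of 59 ribosomal protein genes (Rps15, 0.69 ± 0.04), of 31 immediate early genes (Dusp2, -0.72) and of 32 TGF-beta response genes (Il11). Lysosomal genes ran slightly low, with 35 of 45 below 0, a median of -0.24 and Ctss (-1.17) and Ids (-0.71) among the 3 decreased. Nuclear genes of the mitochondrial respiratory chain ran slightly high, with 58 of 66 above 0, a median of 0.15 and none called. Over all genes 6471 were above 0 and 5805 below, with 2.19% increased and 3.08% decreased. The absence of calls in the shorter lists is close to that share.

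Transcripts encoded by the mitochondrial genome itself ran the other way. This set of 20 probes was chosen after the decrease of mt-Nd4l, a subunit of complex I and 1 of the 15 largest decreases, had been seen. Of 19 probes detected 18 were lower in Rb-deleted MEFs, the median was -0.39 and 4 passed 1.6-fold. Over all 12290 genes 5805 were below 0 and 3.08% were decreased. Several mitochondrial transcripts are read by more than 1 probe, so these probes are not separate measurements. The probe mt-Nd4l gave 1002, 314, 772 and 784 (-1.69 ± 0.10), and another probe to the same transcript, mtDNA_ND4L, gave 1858, 728, 1317 and 1453 (-1.33 ± 0.09). Next came mtDNA_ND2 with 6758, 3975, 5647 and 6775 (-0.71 ± 0.06) and mtDNA_ATP8 with 12901, 7705, 10444 and 10591 (-0.69 ± 0.06). The probe mt-Cytb was nearly level at 30926 and 29337 (-0.04 ± 0.05), and mt-Nd5 was higher at 175 and 245 (0.58 ± 0.14) although mtDNA_ND5 was lower (-0.66 ± 0.06).

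**Figure D5:**
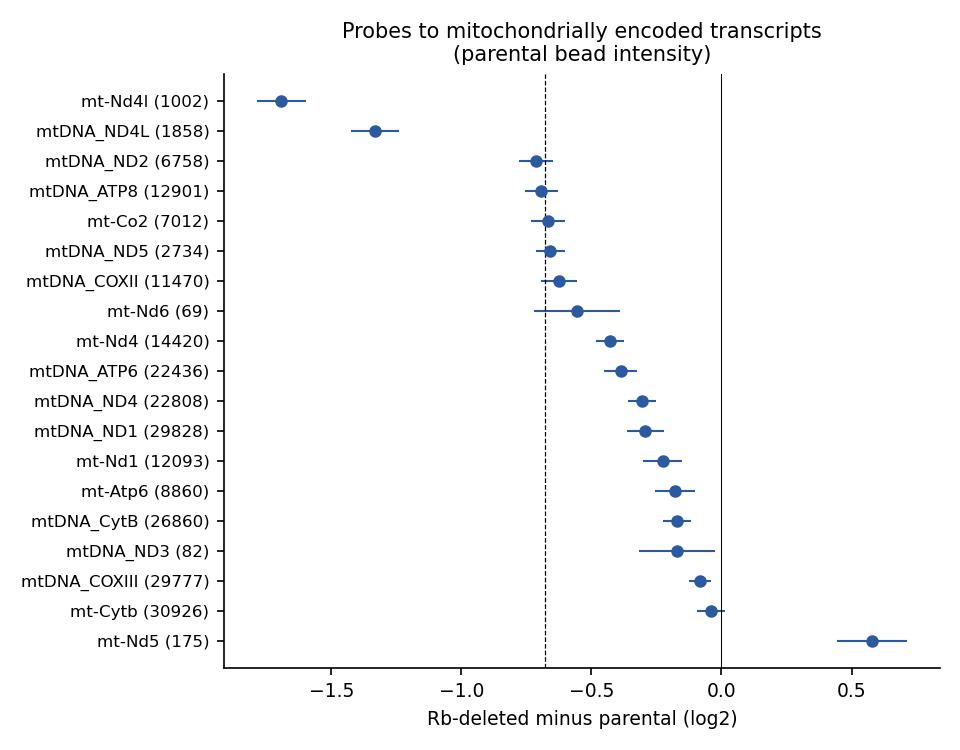
Log2 ratio of Rb-deleted to parental MEFs with bead SE (x axis) for the 19 detected probes to mitochondrially encoded transcripts (y axis, parental intensity in parentheses), with a dashed line at 1.6-fold lower. All but mt-Nd5 lie below 0, from -0.04 for mt-Cytb to -1.69 for mt-Nd4l.

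Decreased genes were also often neighbours on the chromosome. Of 335 decreased genes that could be ordered in RefSeq 72 (21.5%) had a decreased gene next to them among the genes analysed, beside 6.25% of all 10314 genes placed. Of 235 increased genes 15 (6.38%) had an increased neighbour, beside 4.49% of all. Runs of at least 3 were mostly gene clusters that arose by duplication. Related copies can share signal on an array, which was not tested. The runs held Ccl5, Ccl9, Ccl3 and Ccl4 on chromosome 11, Gbp5, Gbp6, Gbp3 and Gbp2 on chromosome 3, and Ppbp, Cxcl4 and Cxcl15 on chromosome 5. The only run of increases was Smpdl3b, Rpa2 and Ppp1r8 on chromosome 4, at log2 ratios of 1.01, 0.83 and 0.70 in that order.

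Where probes of a gene disagreed, the gene's value depends on the probe. The widest gap was in Prss23, a secreted serine protease, whose probe at transcript position 970 rose from 193 to 410 (1.22 ± 0.05) while the brighter one at position 3123 gave 507 and 379 (-0.40 ± 0.10). Irgm1, an interferon-induced GTPase, gave -0.39 ± 0.05 at its brightest probe and -1.84 ± 0.06 and -1.33 ± 0.16 at the others, so the brightest probe left it uncalled. Ctsa and Zfp607 also had probes that pointed opposite ways. Whether these probes read different transcripts was not tested.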

How the data were processed

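Expression was measured on 4 arrays, 1 per condition, grouped by the labels. The authors deposited each probe's summarized intensity on a linear scale without normalization, with a detection p-value, a bead standard error and a number of beads (all deposited by the authors). Software of the array processing is not given in the sources used here.

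Background was corrected by normexp inferred from the detection p-values, with an offset of 16, and the 4 arrays were quantile normalized together on the log2 scale (limma 3.58.1, R 4.3.3). Later steps used Python 3.11.15, numpy 2.4.6 and pandas 2.3.3. Probes detected at a p-value below 0.01 on the parental or Rb-deleted array entered, 17232 in all. Members, lists and alternatives were chosen with earlier results of these data known. Where a probe was not detected on the dimmer array, a bound was taken against the higher of its own value and the lowest detected value there. The number of arrays limits the precision, bead errors cover a single array only, and no test was made. No paired analysis was possible because each condition has 1 array.

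Named genes were Rb1 and its 3 nearest analysed neighbours on each side, the 15 largest increases and decreases outside the E2F and interferon lists that also passed without background correction, up to 4 members per list with the largest ratios and the member with the highest signal, the 5 widest gaps between probes, the 5 largest bounds each way and sex-linked genes. Symbols that are a number or a LOC model were left out of the largest changes and bounds. Genes named otherwise are said to be chosen after their values were seen, apart from list members, motif examples and runs of neighbours named to fill out a count. Genome positions in the file mix builds and were left out in favour of transcript positions. Of 40 symbols turned into dates 34 were restored by Entrez number. RefSeq (GRCm38.p6) matched 10845 of the genes analysed, and the first promoter listed for a gene was used. The calculation was tested on simulated data.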

Additional observations from a re-analysis of the deposited data

How the results depend on the processing

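The counts of called genes depended on how dim signals were treated. Against 269 increased and 378 decreased genes, 142 and 242 passed 1.6-fold without background correction, and 123 and 214 with an offset of 50 in place of 16. The agreement of second probes in sign was 99.04% with an offset of 50, over fewer called genes, and 96.9% in the setting reported. At 2-fold 65 and 157 genes passed, and at 1.5-fold 443 and 542. Median scaling gave 239 and 424, no normalization between arrays 237 and 425, quantile normalization of the 2 arrays alone 272 and 388, genes detected on both arrays 223 and 307, a detection p-value below 0.05 gave 268 and 379, and the mean of all detected probes 248 and 363. No list median and no named gene that lay past 1.6-fold changed sign under the alternatives run for it. Of 888 values of single genes 611 moved by less than their bead error, and 421 of 440 list medians by less than the median bead error over all genes analysed. The median of Chemokines was -0.48 with the larger offset, against -0.84. With 150 bases of promoter the E2F motif stood in 11.8% of increased promoters. Dim genes near the background give only bounds, and with 1 array a side no array could be left out.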
